A study of Mus musculus with 6 samples.

Results

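Axon guidance genes were examined in the nucleus accumbens, a ventral striatal region, after a viral vector had delivered the long noncoding RNA Gas5. The set is defined by gene name and holds the semaphorins, plexins, neuropilins, Eph receptors, ephrins, Slits, Robos, netrins, Dcc and the Unc5 receptors. It numbered 69 of the 54658 genes listed in the count tables. Tissue came from male C57BL6 mice aged 8 weeks. The Gas5 group had been micro-injected with a herpes simplex virus vector, p1005+, carrying Gas5 together with EGFP. The GFP group had received EGFP alone in that vector, so virus, surgery and EGFP were common to both groups. Each group is represented by 3 libraries, A to C, of between 32359052 and 56081575 counts. The labels name no promoter for the insert and do not say whether a sample was 1 mouse or a pool. P-values therefore measure the spread between these samples, which may be technical.

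Guidance cues are secreted or membrane-bound proteins that attract or repel growing axons through receptors on the growth cone. Semaphorins signal through plexins, the secreted class 3 members mostly with a neuropilin as co-receptor. Ephrins and Eph receptors signal at cell contacts, Slits repel axons through Robos, and netrins attract through Dcc and repel through Unc5 receptors. In the adult striatum many of these genes remain expressed and take part in the choice and upkeep of synapses.

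The labels were checked on Gas5 itself, which stood at 22.6, 23.3 and 23.6 CPM in the Gas5 libraries (always given in the order A, B, C) against 18.6, 16.5 and 18.3 CPM in the GFP libraries. CPM is the count of a gene per 1000000 counts of its library, after scaling. It was 1.30-fold higher in the Gas5 group (adjusted p 0.0164, edgeR). The medium spiny neuron markers had 0 of 10 members past the test in either direction (median log2 fold change 0.04), with a summed level of 3763 to 4987 CPM in the Gas5 libraries against 4559 to 5197 CPM in the GFP libraries. Markers of cortical excitatory neurons were different. Of 11 tested, 8 were lower and 0 higher, and their summed level was 189 to 247 CPM against 413 to 554 CPM. Their mean log2 CPM, called the cortical marker score here, was 1.997, 2.67 and 2.86 in the Gas5 libraries against 3.85, 4.34 and 4.39 in the GFP libraries. Summed levels of 3 other lists did not overlap between the groups either. They were 1433 to 1824 against 1880 to 2047 CPM for oligodendrocytes, 243 to 265 against 203 to 229 CPM for microglia and 141 to 147 against 154 to 160 CPM for endothelial cells. The smaller lists of ependymal cells, fibroblasts of the meninges and oligodendrocyte precursors were likewise higher in every Gas5 library, at 5.70 to 6.40 against 4.06 to 4.41, 19.2 to 27.6 against 14.8 to 18.9 and 52.2 to 58.9 against 50.03 to 51.9 CPM. Those of interneurons, neuroblasts and septal and pallidal neurons overlapped. The astrocyte sum, 2492 to 3005 against 2858 to 3057 CPM, overlapped too, but most of it is Slc1a2, a glutamate transporter gene with a log2 fold change of -0.21 (adjusted p 0.258). The other astrocyte markers tested had positive log2 fold changes, 0.43 for Aldh1l1, 0.38 for Aqp4, 0.35 for Gja1, 0.28 for Slc1a3 and 0.17 for Sox9, and the median of the list was 0.31. Aqp4 was called higher (adjusted p 0.0486), and Aqp4 and Aldh1l1 did not overlap between the groups. Among the endothelial markers Flt1 was called lower, at 79.1 against 91.1 CPM on average (log2 fold change -0.20, adjusted p 0.0300). Tek had a log2 fold change of -0.14. Cldn5, Pecam1 and Cdh5 overlapped between the groups, at 0.012, 0.018 and 0.005, and the median of the list was 0.005. The defining markers Neurod1, Gfap, P2ry12, C1ql1, Gpr17 and Dlx1 were at 0 in every library, and 100% of the span of each is shared with other listed genes, where reads are not counted. The part of these markers in the results below was not tested. A fit with the cortical marker score is given, but it cannot separate that part from the vector, since the score does not overlap between the groups. In bulk tissue fewer cells of a type and less RNA per cell cannot be told apart.

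Of the 69 guidance genes 67 were tested, all with at least 10 counts in each of the 6 libraries. The 2 others were Efna4, an ephrin-A gene, with 7, 1 and 6 counts against 3, 4 and 1 in the GFP libraries, and Ntn5, with 1 count in Gas5 A and 0 elsewhere. Of the span of Ntn5 98.5% is shared with another listed gene, where reads are not counted, so its level cannot be read from these counts. A gene is called where the Benjamini-Hochberg adjusted p of the edgeR quasi-likelihood test, taken over all 17693 tested genes, lies under 0.05. By this rule 10 guidance genes fell and 2 rose in the Gas5 group. The 12 calls are 17.9% of the tested set, against a background of 5.40% of all tested genes. The 10 lower genes are 14.9% of the set against 3.94%, and the 2 higher genes 2.99% against 1.46%. Called genes tend to be long in these libraries. Among the 2620 tested genes that span over 100 kb, 12.8% were called and 10.2% were called lower, and of the 32 guidance genes of that length 8 were called, 7 of them lower. The groups did not overlap in 32 guidance genes, 13 of them higher and 19 lower in Gas5, which is 47.8% against 27.7% of all tested genes (13.7% higher and 13.9% lower). The median log2 fold change was -0.07 over the set and 0.02 over all tested genes.

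The genes that fell were the semaphorins Sema3e, Sema5a, Sema5b, Sema6d and Sema7a, the Eph receptors Epha3, Epha5 and Epha10, and the Slit receptor relatives Robo2 and Robo3. Those that rose were the netrin Ntn1 and the plexin Plxnb2. The largest positive medians of the marker lists were 0.53 for fibroblasts of the meninges and 0.49 for ependymal cells. Those of astrocytes, microglia and neuroblasts were 0.31, 0.26 and 0.25. The ependymal median rests on 2 tested markers, Foxj1 at 0.12, which overlapped between the groups, and Rsph1 at 0.86. Of the 4 fibroblast markers, Col1a2 and Lum overlapped between the groups, Lum at -0.09, and Col1a1 and Dcn did not. The lists of cortical excitatory neurons, interneurons, oligodendrocytes and septal and pallidal neurons had negative medians. The part of these cell types in the rises was not tested. Ligands and receptors were called in equal number, with 5 lower and 1 higher of 33 tested ligands and 5 lower and 1 higher of 34 tested receptors. The 12 calls had the same sign whichever library was left out, but all 12 were lost without GFP B and without GFP C, when 108 and 92 of all genes were called. With the cortical marker score as a further term 0 guidance genes were called by edgeR, with 3 at an unadjusted p under 0.05, and 7 of the 12 changed sign. That fit called 0 of all tested genes. The score does not overlap between the groups, so its effect and that of the vector cannot be told apart.

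**Figure D1:**
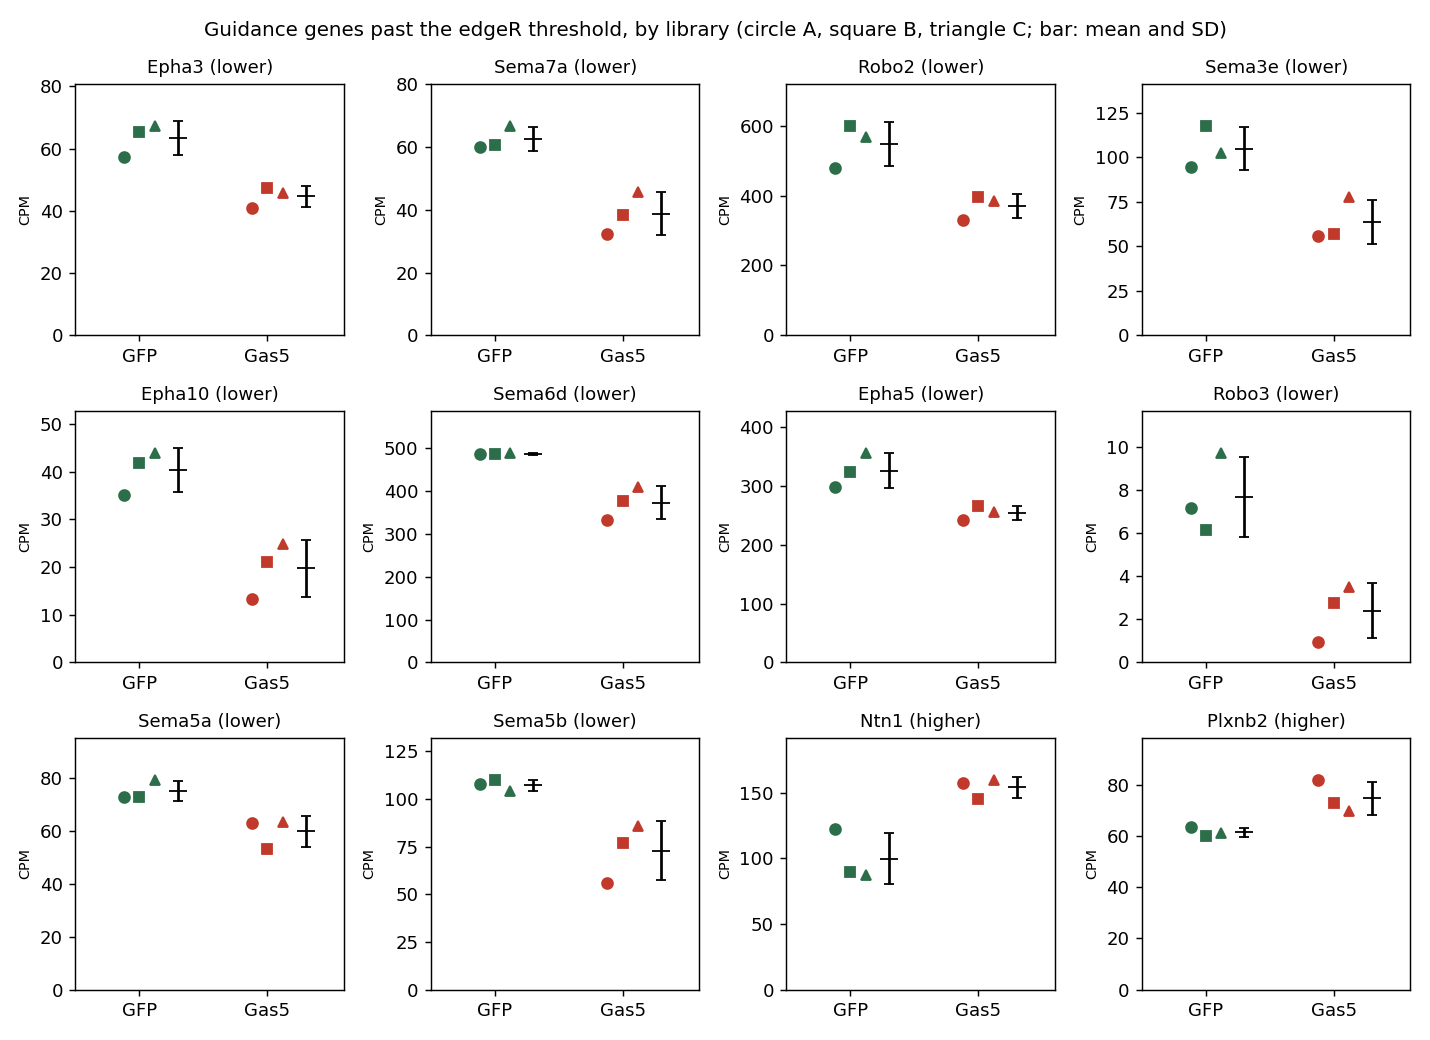
CPM of the 12 called guidance genes in each library, with 1 panel per gene, an axis that starts at 0 and the mean and SD (n = 3) beside each group. In every panel the 3 Gas5 libraries lie wholly below or wholly above the 3 GFP libraries. Robo3 has the largest relative difference, 2.41 against 7.68 CPM on average.

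The promoters of 4 called genes are shown, from 250 bases before the start site up to the base before it, because they cover 3 genes that fell and 1 that rose. Sequences are from RefSeq on GRCm38.p6 and run 5′ to 3′ on the gene's strand. Capitals mark the GC box GGGCGG on either strand, which was searched together with the E-box CAGATG and the TATA motif TATAAA. None of these 3 motifs is part of another.
Sema7a, chr9:57939862-57940111, plus strand: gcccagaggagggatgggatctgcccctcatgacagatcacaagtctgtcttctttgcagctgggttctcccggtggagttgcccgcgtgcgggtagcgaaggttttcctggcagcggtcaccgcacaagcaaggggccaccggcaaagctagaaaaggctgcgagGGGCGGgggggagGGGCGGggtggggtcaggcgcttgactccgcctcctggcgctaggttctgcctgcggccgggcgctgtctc
Sema5a, chr15:32244563-32244812, plus strand: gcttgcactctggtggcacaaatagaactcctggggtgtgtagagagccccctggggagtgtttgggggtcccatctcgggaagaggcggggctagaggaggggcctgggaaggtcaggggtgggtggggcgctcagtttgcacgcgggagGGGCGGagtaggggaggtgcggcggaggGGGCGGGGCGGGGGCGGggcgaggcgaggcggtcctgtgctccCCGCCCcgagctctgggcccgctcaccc
Epha3, chr16:63864176-63864425, minus strand: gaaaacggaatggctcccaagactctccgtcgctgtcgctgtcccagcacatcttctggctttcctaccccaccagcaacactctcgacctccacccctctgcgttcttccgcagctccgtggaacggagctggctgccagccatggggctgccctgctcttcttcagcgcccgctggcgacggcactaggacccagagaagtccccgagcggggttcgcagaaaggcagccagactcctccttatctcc
Plxnb2, chr15:89180789-89181038, minus strand: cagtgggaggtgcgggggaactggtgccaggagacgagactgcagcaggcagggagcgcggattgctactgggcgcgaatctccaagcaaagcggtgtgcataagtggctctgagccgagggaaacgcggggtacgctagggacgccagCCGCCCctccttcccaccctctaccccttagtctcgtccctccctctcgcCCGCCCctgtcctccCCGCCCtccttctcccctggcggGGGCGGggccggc
The windows of Sema7a, Sema5a and Plxnb2 held 2, 5 and 4 GC boxes and that of Epha3 held 0. A window was found for 59 guidance genes, 53 of them within 500 bases of the start in the count tables, and for 11 of the 12 called genes. GC boxes were present in 72.9% of the 59 windows, against 32.7% of all 32841 windows of that length. The 59 are 1 window per gene, the one nearest to its listed start. The 32841 are every entry, with several for some genes and no filter on counts, so they are not a matched background. Among the 10 genes that fell 7 windows held one, and among 46 tested genes that were not called 35 did. CAGATG was in 0 of the 10 and in 6.78% of the 59 windows (14.4% of all), and TATAAA was in 0 of the 10 and in 3.39% (12.4% of all). The windows of the genes that fell had a median of 63.2% G and C, those of the genes not called 65.4%, and all windows 52.4%.

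Semaphorins had 5 of 20 tested members lower and 0 higher, with a median log2 fold change of -0.11. The lower share was 25%, against 3.94% of all tested genes. In class 3, the secreted semaphorins, Sema3e was the 1 called member of 7. Sema3e encodes a ligand that binds Plxnd1 without a neuropilin and is known from the wiring of thalamic inputs onto striatal neurons. It stood at 55.6, 57.1 and 77.7 CPM in the Gas5 libraries against 94.5, 118 and 102 CPM in the GFP libraries, so the groups did not overlap. Sema3e fell by 0.73 on the log2 scale (standard error 0.131, adjusted p 0.0209), with an adjusted p of 0.0943 without GFP B and 0.0932 without GFP C. Its gene lies on chromosome 5 from 14025276 to 14256689 of GRCm38, and 9.71% of these bases belong to other genes too and carry no counts. The other 6 class 3 members ranged from -0.31 for Sema3a, ligand of Nrp1, to 0.26 for Sema3g, and were not called. Sema3f, the class 3 member with the highest level per length, at 0.703 CPM per kb of span, had a log2 fold change of 0.15 (adjusted p 0.319).

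Plxnd1, the receptor of Sema3e, had values on the same side. Its levels were 54.7, 78.2 and 70.3 CPM in the Gas5 libraries against 85.2, 111 and 100.1 CPM in the GFP libraries, with no overlap. The log2 fold change was -0.54 (standard error 0.134) and the adjusted p of 0.0547 did not pass the threshold. DESeq2 called it, with an adjusted p of 0.00103. The ratio of Sema3e to Plxnd1 CPM was 0.951 ± 0.196 in the Gas5 libraries against 1.07 ± 0.0435 in the GFP libraries (SD, n = 3 each), and an exact permutation test on its log2 gave p = 0.4, 2-sided. This ratio is 1 of 5 between pairs of guidance genes, chosen after the values were seen, with a Benjamini-Hochberg adjusted p of 0.4 over the 5.

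Sema7a, the 1 member of class 7, is anchored in the membrane by a lipid and binds Plxnc1 and integrins. Its levels were 32.3, 38.2 and 45.8 CPM in the Gas5 libraries against 59.9, 60.8 and 66.9 CPM in the GFP libraries. Every Gas5 library lay below every GFP library, and the gene was 1.61-fold lower, at a log2 fold change of -0.69 (standard error 0.112, adjusted p 0.0152). The adjusted p was 0.0679 without GFP B and 0.0805 without GFP C. Sema7a lies on chromosome 9 from 57940112 to 57962865, and no other listed gene shares its span. Its receptor Plxnc1 stood on the other side, at 157, 108 and 123 CPM in the Gas5 libraries against 104, 95.7 and 89.9 CPM in the GFP libraries. The log2 fold change of Plxnc1 was 0.42 (standard error 0.124, adjusted p 0.0934), which was not called. DESeq2 called it, with an adjusted p of 0.0135. The ratio of Sema7a to Plxnc1 CPM was 0.206, 0.354 and 0.371 in the Gas5 libraries against 0.575, 0.636 and 0.744 in the GFP libraries. This is a 2.16-fold lower ratio. The exact permutation p was 0.1, 2-sided, the smallest that 3 against 3 libraries allow, and 0.125 adjusted over the 5 ratios. Since Sema7a was lower and Plxnc1 higher in every Gas5 library, the ratio had to separate the groups, so the test adds no support.

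Both class 5 semaphorins fell. These are transmembrane proteins with thrombospondin repeats. Sema5b stood at 56.1, 76.9 and 86.0 CPM in the Gas5 libraries against 108, 110 and 104 CPM in the GFP libraries, with Gas5 A the lowest. Sema5b fell by 0.56 on the log2 scale (standard error 0.130, adjusted p 0.0466). Sema5a stood at 63.0, 53.3 and 63.3 CPM against 72.7, 73.0 and 79.4 CPM and fell by 0.32 (standard error 0.0733, adjusted p 0.0418). These calls lay close to the threshold. Sema5b was not called under upper quartile scaling or with a robust dispersion, and Sema5a was not called without a scaling factor. Each was called in 2 of the 6 fits that leave out a library. Sema5b did not pass without Gas5 B (adjusted p 0.0625), GFP A (0.0957), GFP B (0.168) or GFP C (0.148). Sema5a did not pass without Gas5 C (adjusted p 0.0503), GFP A (0.0686), GFP B (0.130) or GFP C (0.166). Sema5a spans chromosome 15 from 32244810 to 32696341 and Sema5b chromosome 16 from 35541145 to 35664732.

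In class 6, transmembrane semaphorins that bind A plexins, Sema6d was the 1 called of 4. Its levels were 331, 377 and 408 CPM in the Gas5 libraries against 485, 486 and 489 CPM in the GFP libraries. The GFP libraries were nearly level, and all Gas5 libraries lay below them. Sema6d was 1.31-fold lower (log2 fold change -0.39, standard error 0.0748, adjusted p 0.0256), but not called without GFP A (adjusted p 0.0567), GFP B (0.113) or GFP C (0.122). It lies on chromosome 2 from 124089969 to 124667770, a span of which 1.83% is exon. The other 3 members had log2 fold changes between -0.13 and -0.12, among them Sema6b, the class 6 member with the highest level per length at 4.58 CPM per kb. Of the 6 class 4 semaphorins, mostly ligands of B plexins, 0 were called, with a range from -0.12 for Sema4f to 0.15 for Sema4b. Sema4a had the highest level per length of class 4, at 1.31 CPM per kb, and a log2 fold change of -0.07.

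Plexins and neuropilins, the semaphorin receptors, had 1 of 11 members higher and 0 lower. The higher share was 9.09%, against 1.46% of all tested genes. Plxnb2, a receptor of class 4 semaphorins, stood at 81.9, 72.8 and 69.6 CPM in the Gas5 libraries against 63.4, 60.1 and 61.1 CPM in the GFP libraries. Gas5 A was the highest, and the groups did not overlap. Plxnb2 rose 1.22-fold (log2 fold change 0.28, standard error 0.0640, adjusted p 0.0428). That call was lost without any library but Gas5 C, with an adjusted p between 0.0542 and 0.177 in those 5 fits. Plxnb2 spans chromosome 15 from 89155549 to 89180788, of which 30.6% is exon. Its relative Plxnb1, the B plexin with the highest level per length at 3.18 CPM per kb, had a log2 fold change of 0.16 (adjusted p 0.103), and Plxnb3 one of -0.12.

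The 2 neuropilins stood on opposite sides. Nrp1, the co-receptor of Sema3a and a receptor of vascular endothelial growth factor, was at 104, 78.7 and 94.8 CPM in the Gas5 libraries against 78.2, 61.8 and 65.5 CPM in the GFP libraries. Its log2 fold change was 0.43 (standard error 0.115, adjusted p 0.0664). Nrp2, the co-receptor of Sema3f, was at 64.2, 67.0 and 64.9 CPM against 68.6, 82.8 and 75.2 CPM, with a log2 fold change of -0.21 (adjusted p 0.120). Neither was called, and neither overlapped between the groups. Nrp1 was called by DESeq2 (adjusted p 0.00630). Of the A plexins, Plxna1 had a log2 fold change of 0.30 (adjusted p 0.140, 27.5% of its span not counted), and Plxna2, the highest of them per length at 1.90 CPM per kb, one of -0.05.

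**Figure D2:**
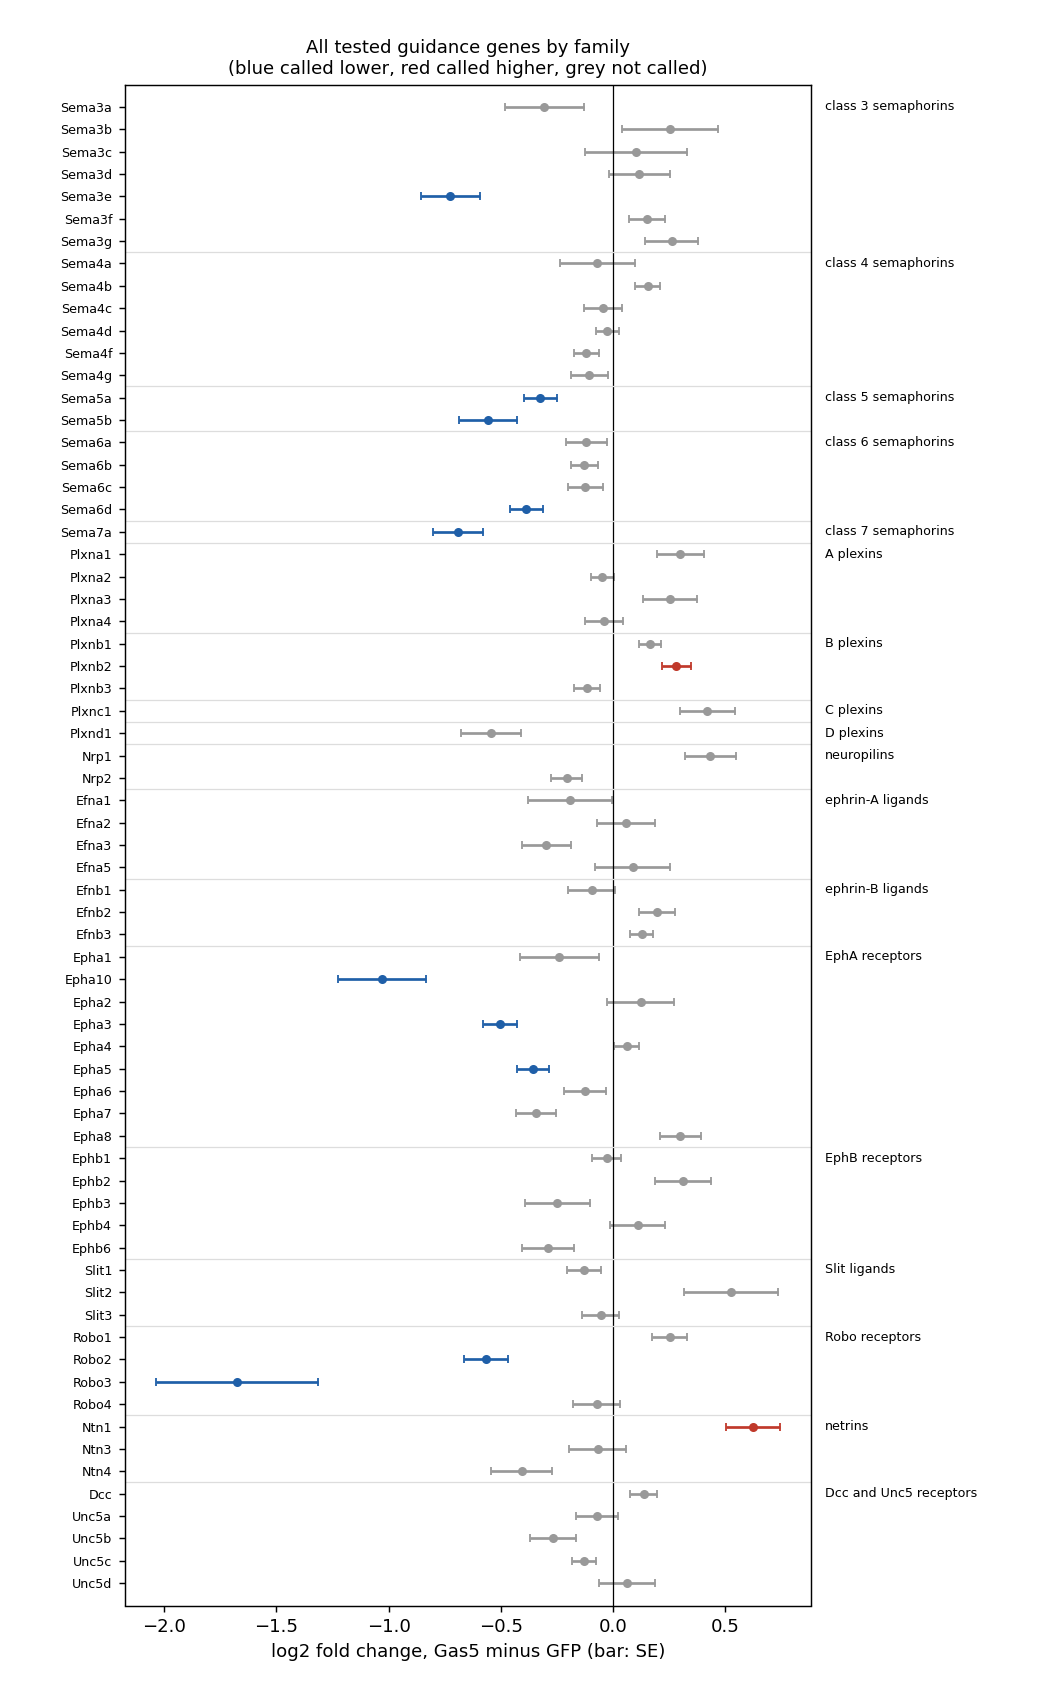
Log2 fold change, Gas5 minus GFP, of the 67 tested guidance genes by family, with the standard error as bars. The 10 genes that fell and 2 that rose are coloured, and the 55 others lie between -0.54 (Plxnd1) and 0.53 (Slit2).

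Among EphA receptors, which bind ephrin-A ligands, 3 of 9 fell and 0 rose, with a median log2 fold change of -0.24. Those 3 are 33.3% of the family, against 3.94% of all tested genes called lower. Epha3 had the smallest p of all guidance genes. Its levels were 40.9, 47.4 and 45.7 CPM in the Gas5 libraries against 57.3, 65.5 and 67.4 CPM in the GFP libraries, with no overlap. Epha3 was 1.42-fold lower (log2 fold change -0.50, standard error 0.0766, adjusted p 0.0122), with an adjusted p of 0.0679 without GFP B and 0.0656 without GFP C. It lies on chromosome 16 from 63543534 to 63864175, and 2.71% of the span is exon.

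Epha10, an Eph receptor whose kinase domain is taken to be inactive, had the largest relative difference of the family. It stood at 13.3, 21.1 and 24.9 CPM in the Gas5 libraries, from 572, 902 and 966 counts, and at 35.1, 41.9 and 44.0 CPM in the GFP libraries. Gas5 A was the lowest library. Epha10 was 2.04-fold lower (log2 fold change -1.03, standard error 0.195, adjusted p 0.0240), and the call was lost with a robust dispersion, without GFP B (adjusted p 0.104) and without GFP C (0.118). It lies on chromosome 4 from 124880899 to 124917800, with 10.6% of the span not counted.

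Epha5, which is abundant in forebrain neurons, stood at 242, 266 and 255 CPM in the Gas5 libraries against 298, 323 and 356 CPM in the GFP libraries. The log2 fold change of Epha5 was -0.36 (standard error 0.0716, adjusted p 0.0291), with no overlap between groups. It did not pass when Gas5 A (adjusted p 0.0584), Gas5 C (0.0592), GFP B (0.120) or GFP C (0.119) was left out. Epha5 lies on chromosome 5 from 84054761 to 84417382. Epha7 had values on the same side, at 150, 177 and 197 CPM against 213, 227 and 223 CPM, with an adjusted p of 0.0637 and a log2 fold change of -0.34. DESeq2 called Epha7, with an adjusted p of 0.00719.

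Positive log2 fold changes, with 0 calls, were found for 3 of the 9 EphA receptors. Epha4, a receptor that also binds ephrin-B ligands and has the highest level of the EphA genes per length at 1.79 CPM per kb, stood at 254, 285 and 271 CPM in the Gas5 libraries against 261, 265 and 250 CPM in the GFP libraries, which overlap. Its log2 fold change was 0.06 (adjusted p 0.585). Epha8 had a log2 fold change of 0.30 (adjusted p 0.105). The ratio of Epha3 to Epha4 CPM was 0.165 ± 0.00375 in the Gas5 libraries against 0.245 ± 0.0251 in the GFP libraries (SD, n = 3 each). The exact permutation test on its log2 gave p = 0.1, 2-sided, adjusted to 0.125 over the 5 ratios.

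EphB receptors and the ephrins had 0 called members of 5 and of 7 tested. Ephb6, the EphB receptor with the highest level per length at 2.11 CPM per kb, had a log2 fold change of -0.29 (adjusted p 0.194). Efnb3, an ephrin-B ligand and the highest of all guidance genes per length at 12.8 CPM per kb, stood at 81.2, 80.2 and 84.5 CPM in the Gas5 libraries against 79.9, 73.5 and 71.7 CPM in the GFP libraries, with a log2 fold change of 0.13 (adjusted p 0.212). Its span is short and 52.1% exon, whereas the long genes are mostly intron, so levels per length also differ with the exon share. Efna3, the ephrin-A gene with the highest level per length at 1.01 CPM per kb, had a log2 fold change of -0.30 (adjusted p 0.155), and 38.3% of its span is not counted. Efna5, a ligand of Epha3 and Epha5, stood at 191, 111 and 133 CPM against 133, 132 and 144 CPM. Gas5 A was the highest library and Gas5 B the lowest, so the groups overlapped.

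Robo receptors had 2 of 4 members lower and 0 higher, or 50% called lower against 3.94% of all tested genes. Robo2 stood at 331, 396 and 384 CPM in the Gas5 libraries against 478, 601 and 568 CPM in the GFP libraries, with no overlap. Robo2 was 1.48-fold lower (log2 fold change -0.57, standard error 0.0980, adjusted p 0.0181), with an adjusted p of 0.0886 without GFP B and 0.0992 without GFP C. Robo3, a divergent family member known from the crossing of the midline by commissural axons, was scarce. It had 42, 118 and 135 raw counts against 398, 237 and 309 in the GFP libraries, or 0.974, 2.76 and 3.48 CPM against 7.16, 6.15 and 9.73 CPM. Gas5 A was far below the other Gas5 libraries. Robo3 was 3.2-fold lower, the largest relative difference among guidance genes (log2 fold change -1.68, standard error 0.360, adjusted p 0.0359). The call was lost with a robust dispersion and without Gas5 B (adjusted p 0.0555), GFP A (0.0680), GFP B (0.0975) or GFP C (0.148), and kept without Gas5 A, where the log2 fold change was -1.29. Robo2 lies on chromosome 16 from 73891839 to 74411825 and Robo3 on chromosome 9 from 37415669 to 37433246.

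Robo1, the other main Slit receptor of the brain, stood on the other side from Robo2. It is the most abundant Robo gene per length, at 1.79 CPM per kb, and lies on chromosome 16 as Robo2 does, from 72308306 to 73046095. Its levels were 1473, 1351 and 1478 CPM in the Gas5 libraries against 1311, 1191 and 1109 CPM in the GFP libraries, and the groups did not overlap. The log2 fold change of Robo1 was 0.25 (standard error 0.0781, adjusted p 0.105), which was not called, although DESeq2 called it with an adjusted p of 0.0240. The ratio of Robo2 to Robo1 CPM was 0.224, 0.293 and 0.260 in the Gas5 libraries against 0.365, 0.504 and 0.512 in the GFP libraries. This is a 1.77-fold lower ratio, with an exact permutation p of 0.1, 2-sided, adjusted to 0.125 over the 5 ratios. Since Robo2 was lower and Robo1 higher in every Gas5 library, the ratio had to separate the groups, so the test adds no support. Robo4, an endothelial member, had a log2 fold change of -0.07. Of the Slit ligands 0 of 3 were called. Slit2 was at 139, 86.4 and 139 CPM against 108, 68.2 and 75.8 CPM, with overlap (log2 fold change 0.53, adjusted p 0.192), and Slit3, the highest per length at 1.47 CPM per kb, had a log2 fold change of -0.06.

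**Figure D3:**
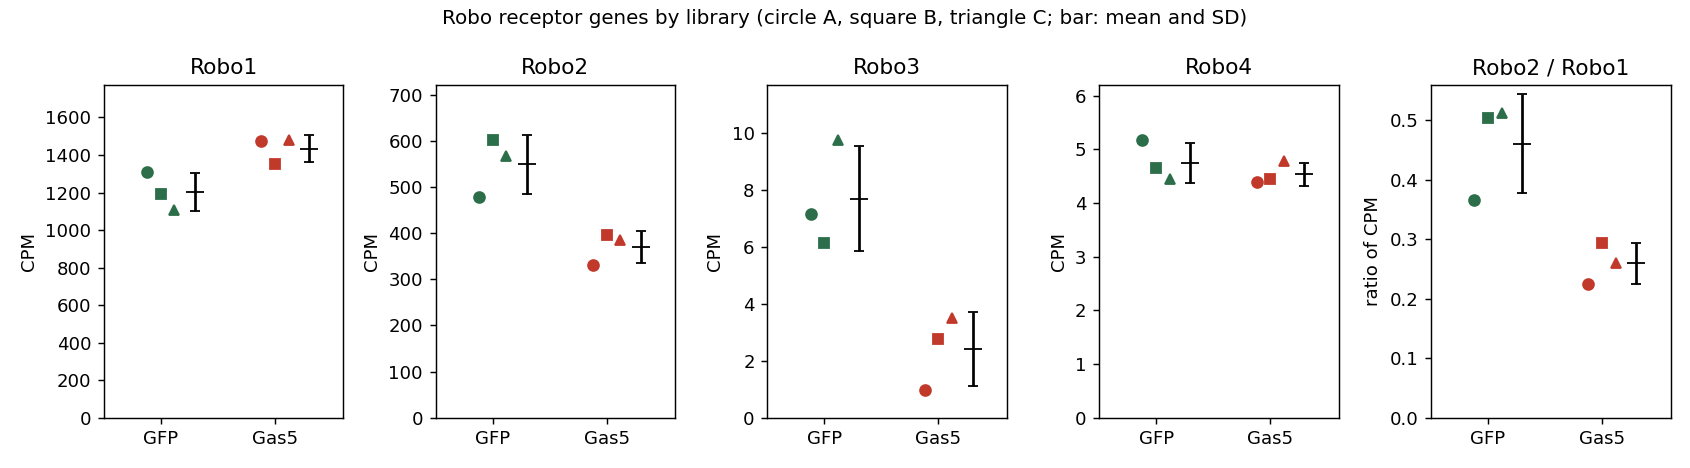
CPM of the 4 Robo genes and the ratio of Robo2 to Robo1 in each library, with axes that start at 0 and the mean and SD (n = 3) beside each group. Robo2 and Robo3 are lower in every Gas5 library, Robo1 is higher in every Gas5 library without passing the test, and Robo4 overlaps.

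Of the netrins 1 of 3 tested rose and 0 fell, where 1.46% of all tested genes were called higher. Ntn1, the secreted netrin that attracts axons through Dcc, stood at 157, 145 and 160 CPM in the Gas5 libraries against 122, 89.5 and 87.3 CPM in the GFP libraries. GFP A was the highest GFP library and still below every Gas5 library. Ntn1 rose 1.54-fold (log2 fold change 0.62, standard error 0.120, adjusted p 0.0248). The call was lost without Gas5 C (adjusted p 0.0662), GFP B (0.116) or GFP C (0.116). Ntn1 lies on chromosome 11 from 68209364 to 68400823. Ntn4, a netrin of basement membranes, was at 6.89, 5.98 and 8.72 CPM against 10.3, 8.92 and 9.35 CPM, with a log2 fold change of -0.41 (adjusted p 0.126). Ntn3, the highest netrin per length at 0.988 CPM per kb, had a log2 fold change of -0.07, and 42.0% of its span is not counted.

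The netrin receptors had 0 called members of 5. Dcc, the receptor for attraction, was at 1535, 1578 and 1594 CPM in the Gas5 libraries against 1470, 1446 and 1368 CPM in the GFP libraries, the largest counts of the set. Its log2 fold change was 0.14 (standard error 0.0608, adjusted p 0.243). The ratio of Ntn1 to Dcc CPM was 0.0981 ± 0.00558 in the Gas5 libraries against 0.0696 ± 0.0118 in the GFP libraries (SD, n = 3 each), with an exact permutation p of 0.1, 2-sided, adjusted to 0.125 over the 5 ratios. The Unc5 genes, which encode receptors for repulsion, ranged from -0.27 for Unc5b (adjusted p 0.179) to 0.06 for Unc5d. Unc5a, the highest of the netrin receptors per length at 1.47 CPM per kb, had a log2 fold change of -0.07.

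Partners of the guidance receptors were counted from a separate list of 51 intracellular effectors and 30 co-receptors and other cues. Of 77 tested, 12 fell and 1 rose, which is 16.9% against the background of 5.40%, and the median log2 fold change was -0.04. Of all tested genes that span over 100 kb, as many of the called partners do, 12.8% were called. The count of called partners was 3 without GFP B, 3 without GFP C, 8 without Gas5 A and 8 without Gas5 B. Among co-receptors and other cues 7 of 26 fell, or 26.9%, against 3.94% of all tested genes and 10.2% of those that span over 100 kb. Of these 7, Ntng2, Cntn2 and Boc span less than 100 kb, so the 10.2% is not a matched background. Ntng1 and Ntng2, the lipid-anchored netrin-G genes, had the smallest p. Ntng2 stood at 14.5, 13.6 and 20.98 CPM in the Gas5 libraries against 38.9, 48.2 and 58.3 CPM in the GFP libraries, 2.96-fold lower (adjusted p 0.00632). Ntng1 stood at 69.8, 67.6 and 82.7 CPM against 117, 124 and 123 CPM, 1.65-fold lower (adjusted p 0.00464). The adhesion molecule genes Cntn2, Dscam, Dscaml1 and Nrcam were lower by 1.43-fold, 1.53-fold, 1.24-fold and 1.17-fold, and Boc, a receptor of the hedgehog pathway, by 1.601-fold.

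Among the effectors 5 of 51 fell and 1 rose. The lower share was 9.8%, against 3.94% of all tested genes and 10.2% of those that span over 100 kb. Some of these effectors, Limk1 and Crmp1 among them, are shorter, so the 10.2% is not a matched background. Mical2, an actin-oxidising enzyme of a family that acts downstream of plexins, stood at 71.6, 94.0 and 96.2 CPM in the Gas5 libraries against 149, 181 and 203 CPM in the GFP libraries, 2.03-fold lower (adjusted p 0.00857). The kinase genes Pak1 and Limk1, which control actin turnover, were lower by 1.40-fold and 1.23-fold. Farp1, an exchange factor for Rac, was lower by 1.21-fold, and Crmp1, a collapsin response mediator, by 1.15-fold. Chn2, which encodes a chimaerin that inactivates Rac, rose 1.22-fold (adjusted p 0.0368).

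Gas5 A was the lowest of the 6 libraries for 9 of the 10 guidance genes that fell, all but Sema5a. It was also the lowest for 63.4% of the 697 genes called lower in the whole table, and for 22.3% of all tested genes. Gas5 A is the library with the lowest cortical marker score, at 1.997. Slc17a7, the vesicular glutamate transporter gene of cortical neurons, stood at 5.75 CPM in Gas5 A and at 25.2 and 42.5 CPM in Gas5 B and C. In the GFP libraries Slc17a7 stood between 153 and 247 CPM. It fell the most of the 11 cortical markers tested, of which 8 were called lower. Cux2 and Lamp5, also among the 11, overlapped between the groups. Cux2 was at 81.8 CPM in Gas5 A against 88.8 to 96.3 CPM in the GFP libraries. Lamp5 was at 28.7 CPM against 29.3 to 34.6 CPM. Without Gas5 A 9 guidance genes were lower and 1 higher.

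**Figure D4:**
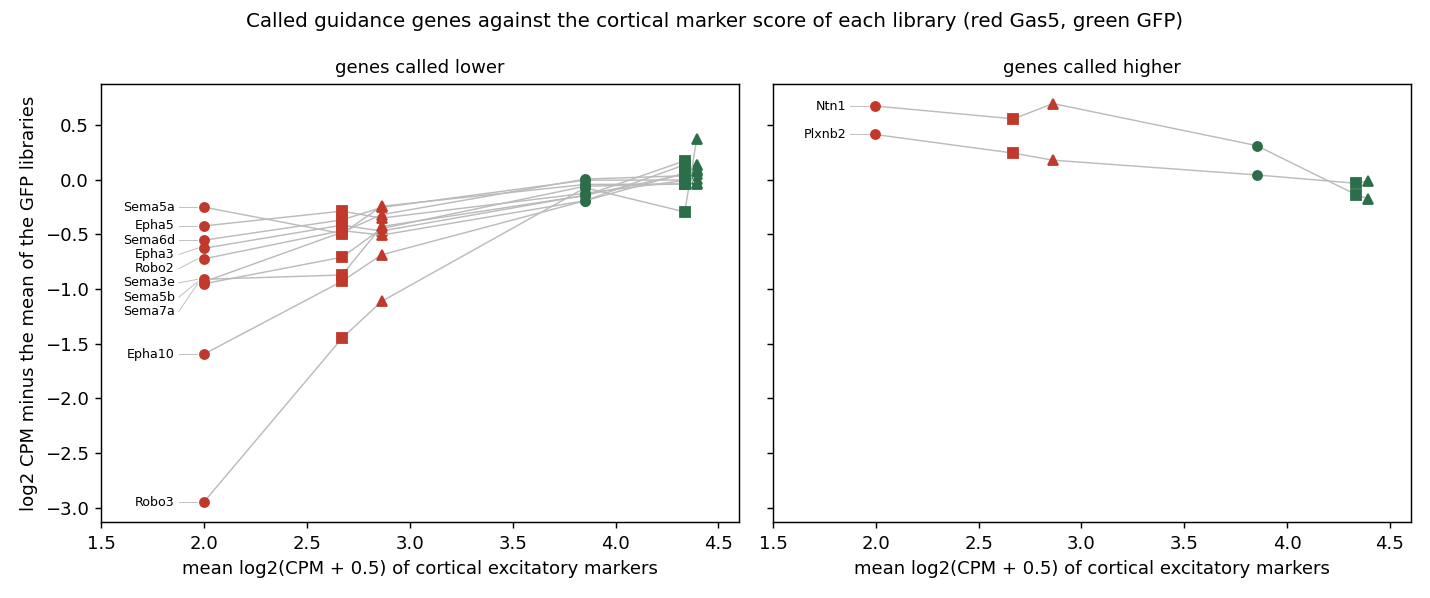
Log2 CPM of each called guidance gene, relative to its mean in the GFP libraries, against the mean log2 CPM (pseudocount 0.5) of the cortical excitatory neuron markers in that library. Each line is 1 gene over the 6 libraries, and the Gas5 libraries, between 1.997 and 2.86 on the horizontal axis, do not overlap the GFP libraries, between 3.85 and 4.39.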

How the data were processed

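Total RNA of 6 nucleus accumbens samples was depleted of ribosomal RNA and sequenced from a kit that marks strand, per the labels' protocols. The build GRCm38.p6 and the tools edgeR 3.20.9, featureCounts 1.5.0-p3, STAR 2.7.0, Trim Galore 0.4.4 and bcl2fastq 1.8.4 are listed in the submitters' processing notes. The annotation release was not given in the sources used here, nor was the strand setting. The authors deposited raw counts for each gene, without normalization. The length column, per the file headers, equals the span of the gene in bases, introns included. Exon shares are from GENCODE M21 on the same build. Of 1181 protein-coding genes nested in another gene 0 had a count, so reads in overlaps of genes are absent.

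Genes with at least 10 counts in 3 or more libraries were kept, and the quasi-likelihood test of edgeR 4.0.16 (R 4.3.3) was run 2-sided on all 6 libraries with TMM scaling. CPM values are TMM-scaled. The standard error is the size of the log2 fold change over the root of its F statistic. Ratios between genes were tested by exact permutation. Alternatives used other scalings, filters, DESeq2 1.42.0, limma-voom (limma 3.58.1), a robust dispersion, a block for the replicate letter, the cortical marker score, no overlapping genes and 5 libraries. The fit was also run on simulated counts with the same dispersion for every gene, which does not test it under the spread of these libraries. No 2 libraries of a group were alike within counting error (chi-square per degree of freedom 4.82 to 23.3). No batch is given in the labels. Named genes are the called ones, the 25 of smallest p, the highest per length in each family and called partners. Sema3a, Sema3g, Sema4f, Plxnb3, Efna5, Slit2, Robo4, Dcc and Unc5d were named after their values were seen. The members, lists and rules were chosen with earlier results of these data known.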

Additional observations from a re-analysis of the deposited data

How the results depend on the processing

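Where tested, the 12 called guidance genes had the same direction under every alternative tried except a covariate, the cortical marker score. The fit without overlapping genes tested 2 of the 12. RLE scaling, the default filter of edgeR, a filter of 1 CPM in 3 libraries and limma-voom each gave the 2 higher and 10 lower calls of the main test, and upper quartile scaling and library size alone 2 and 9. Without a scaling factor 59.1% of all called genes were lower, against 72.9%, and Plxna2 moved to 0.0072. Robust dispersion called 2 higher and 7 lower guidance genes.

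Over all genes, higher calls numbered 259 and lower calls 697. The counts of higher genes were 656 with no filter, 491 with DESeq2 and 507 with the replicate letter as a block, and those of higher guidance genes 8, 5 and 5. With the block, the lower guidance genes were 13 and the lower genes 927. Whether the letters pair the libraries could not be told from so few libraries. The same-letter correlations of deviations were 0.163 for A, 0.177 for B and -0.094 for C. Those of A and B were the highest for these libraries, whereas the C libraries did not correlate best with each other. Leaving out 1 library gave 3 to 245 higher and 88 to 608 lower genes, 0 to 5 higher and 0 to 11 lower guidance genes, and 3 to 15 partners. The lowest of these came without GFP B or GFP C. Over these fits the log2 fold change ranged from -0.33 to 0.039 for Sema4a, -0.20 to 0.00397 for Unc5a, -0.11 to 0.029 for Slit3 and -0.17 to 0.039 for Ntn3. Leaving out genes that overlap another left 27 guidance genes, with 0 higher and 2 lower (Sema7a and Robo3, the only called genes still tested), 3 partners, and 117 higher and 299 lower of all genes.

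With that covariate 0 genes were called in either direction, guidance genes and partners included, with 389 at an unadjusted p under 0.05, and 21 of 35 named guidance genes changed sign. Log2 fold changes became 0.010 for Sema7a, 0.048 for Robo2, 0.41 for Epha10, 1.8e-05 for Sema6d, 0.39 for Robo3, -0.10 for Plxnb2, 0.21 for Sema5b, 0.35 for Plxnd1, 0.22 for Epha7, -0.16 for Nrp1, -0.35 for Plxnc1, -0.027 for Plxnb1, 0.030 for Nrp2, -0.27 for Plxna1, 0.058 for Unc5b, 0.46 for Sema4a, 0.13 for Plxna2, 0.014 for Sema6b, 0.24 for Unc5a, 0.53 for Ephb6 and 0.39 for Slit3. Standard errors were 0.718 for Robo3 and 0.194 for Sema7a in that fit, against 0.360 and 0.112 in the main test. Of the called genes that kept their sign, Sema5a was at -0.35, and Epha3, Sema3e, Ntn1 and Epha5 at -0.030, -0.014, 0.14 and -0.024. The score separates the groups without overlap, so its effect and that of the vector cannot be told apart here. Depth limits Robo3 most among the called genes, with 42 counts in Gas5 A.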
